A study of Homo sapiens with 8 samples.

Results

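The genes of the proteasome were examined as a group in chromatin immunoprecipitation sequencing (ChIP-seq) peak lists for the transcription factors Sp1 and CTCF. Members were the protein-coding genes of the GENCODE annotation on chromosomes 1 to 22 and X whose symbol starts with PSMA, PSMB, PSMC, PSMD, PSME, PSMF or PSMG followed by a number. The rule found 50 members among 19970 protein-coding genes. A gene was scored as occupied in a list when the summit of a peak, the base of highest signal, lay within 1 kb of any of its annotated transcript starts. The rule used symbols only and no measured value. It also took in PSMC3IP and PSME3IP1, which are named for a proteasome partner, so 48 members are proteasome genes by name alone.

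All libraries came from the human osteosarcoma line U-2 OS, crosslinked for 6 min in 1% formaldehyde. Of 8 libraries, 4 came from cells with a V5-Halo tag knocked into the endogenous SP1 gene: 1 input, 1 pull-down with normal rabbit IgG and 1 pull-down with each of 2 antibodies against Sp1. The other 4 came from clone C32, in which FLAG-Halo was knocked into endogenous CTCF, and comprised 2 CTCF libraries numbered as replicates and their 2 inputs. The lists thus describe tagged Sp1 and tagged CTCF in different engineered lines, both called clones in the study's methods, and no untagged cells. The series description instead names wild type cells for CTCF, and the sample labels were followed. The 5 pull-downs have a peak list each, with 8706 peaks for Sp1 antibody 1, 5973 for antibody 2, 42765 and 36082 for the CTCF replicates and 106 for IgG. Peak lists carry no read counts, and no other source of library depth was used, so no value is set against depth. Each Sp1 antibody has 1 library, so no difference between antibodies or between Sp1 and CTCF has a replicate check and no p-value is given.

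The proteasome is the barrel-shaped protease that degrades ubiquitin-tagged proteins. Its core particle stacks rings of alpha subunits, which gate entry, on rings of beta subunits, some of which carry the proteolytic sites, and the regulatory particle adds a ring of ATPases that unfold substrates and a lid and base of non-ATPase subunits that bind and deubiquitylate them. Cells keep the subunits in balance, and the factor NFE2L1 is known to raise their transcription together through antioxidant response elements when the proteasome is impaired. Sp1 is a zinc finger activator that recognises GC boxes in CpG-rich promoters, and CTCF is a zinc finger protein known for insulators and chromatin loops.

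The windows under the strongest Sp1 summits at members come first. Each holds 121 bases of hg38, plus strand, centred on a member's summit, and capitals mark the motif named. They are shown because these members had the highest Sp1 fold enrichments in 1 list or the other. PSMD5 (chr9:120842939-120843059) and the ATPase genes PSMC3 (chr11:47426398-47426518) and PSMC6 (chr14:52707063-52707183) led the antibody 1 values. In PSMD5 the capitals mark 2 copies of TCGCGAGA, a palindromic promoter word. In PSMC3 and PSMC6 they mark 2 GC boxes each, read as the reverse complement of GGGCGG. PSMF1 (chr20:1118486-1118606), PSMG3 (chr7:1570077-1570197) and PSMC2 (chr7:103347576-103347696) led the antibody 2 values, and the capitals mark the core CCGGAAGT of ETS family factors on either strand. That match began −17 bp from the summit in PSMC2. In PSMF1 and PSMG3 it began at 50 and −52 bp, beyond the 50 bp limit used further on for a motif near a summit.
PSMD5: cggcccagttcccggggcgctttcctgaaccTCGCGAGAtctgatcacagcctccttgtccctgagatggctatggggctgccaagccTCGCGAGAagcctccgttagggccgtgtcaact
PSMC3: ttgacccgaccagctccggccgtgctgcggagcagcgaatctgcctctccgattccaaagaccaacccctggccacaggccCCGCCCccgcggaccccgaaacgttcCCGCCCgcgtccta
PSMC6: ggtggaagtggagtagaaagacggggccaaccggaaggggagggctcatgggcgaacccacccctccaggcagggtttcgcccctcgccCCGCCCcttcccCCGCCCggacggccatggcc
PSMF1: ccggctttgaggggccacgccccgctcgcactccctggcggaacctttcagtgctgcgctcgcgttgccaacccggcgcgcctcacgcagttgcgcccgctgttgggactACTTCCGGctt
PSMG3: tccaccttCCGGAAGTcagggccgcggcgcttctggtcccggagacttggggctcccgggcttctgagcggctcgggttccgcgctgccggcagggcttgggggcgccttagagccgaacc
PSMC2: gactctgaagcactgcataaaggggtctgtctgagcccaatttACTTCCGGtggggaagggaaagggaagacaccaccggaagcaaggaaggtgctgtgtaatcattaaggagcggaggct

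For CTCF, windows are shown of 3 of the 4 members with the highest fold in replicate 1, the other being PSME3, whose summit lies at a distant start. They are the lid gene PSMD11 (chr17:32444245-32444365), the lid gene PSMD6 (chr3:64023509-64023629) and the base gene PSMD1 (chr2:231056500-231056620), again with 121 bases of hg38 on the plus strand. Capitals mark the CTCF core, sought on both strands with at most 1 mismatch. PSMD1 held an exact match on the plus strand and PSMD6 a match on the minus strand with 1 mismatch. The PSMD11 window, under the highest CTCF fold of all members, held no match in these 121 bases within that mismatch limit. Under the same limit the core was within 50 bp of the summit in only 33.8% of replicate 1 peaks at all genes. A missing match therefore does not show that a window lacks a CTCF site.
PSMD11: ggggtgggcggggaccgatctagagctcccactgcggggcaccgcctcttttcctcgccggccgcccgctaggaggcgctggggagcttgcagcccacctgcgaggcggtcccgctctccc
PSMD6: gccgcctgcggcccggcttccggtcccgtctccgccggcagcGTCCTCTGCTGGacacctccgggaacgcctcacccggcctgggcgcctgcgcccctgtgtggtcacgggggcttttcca
PSMD1: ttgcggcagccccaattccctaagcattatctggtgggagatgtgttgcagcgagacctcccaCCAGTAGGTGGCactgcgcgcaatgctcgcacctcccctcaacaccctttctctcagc

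Most proteasome genes carried an Sp1 summit near a start, and they did so more often than protein-coding genes as a whole. With antibody 1, 35 of 50 members were occupied (70%, 95% Wilson interval 56.2 to 80.9%), against 37.5% of all protein-coding genes. With antibody 2 it was 24 of 50 (48%, 34.8 to 61.5%), against 24.2%. Either antibody marked 40 members (80%, 67 to 88.8%) against 40.4% of all genes, and both marked 19 (38%, 25.9 to 51.8%) against 21.2%. In each of these counts the share of all genes lay below the members' interval. IgG had no summit at any member, which allows a share of up to 7.13%, and had one at 0.025% of all genes. These intervals cover counting error only.

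CTCF summits were also found at many members, with shares nearer to those of all genes. CTCF replicate 1 marked 24 members (48%, 34.8 to 61.5%) against 32.5% of all genes, just below that interval, and replicate 2 marked 17 (34%, 22.4 to 47.8%) against 24.9%. Every member marked in replicate 2 was marked in replicate 1, so both marked the same 17 members (34%), against 24.3% of all genes, a share inside the members' interval. A further 7 members (14%) were marked in replicate 1 alone, against 8.23%. Of all members, 41 (82%) had a summit in any of the 4 lists, against 56.2% of all genes. All 4 lists together marked 10 members (20%, 11.2 to 33%) against 6.71%.

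**Figure D1:**
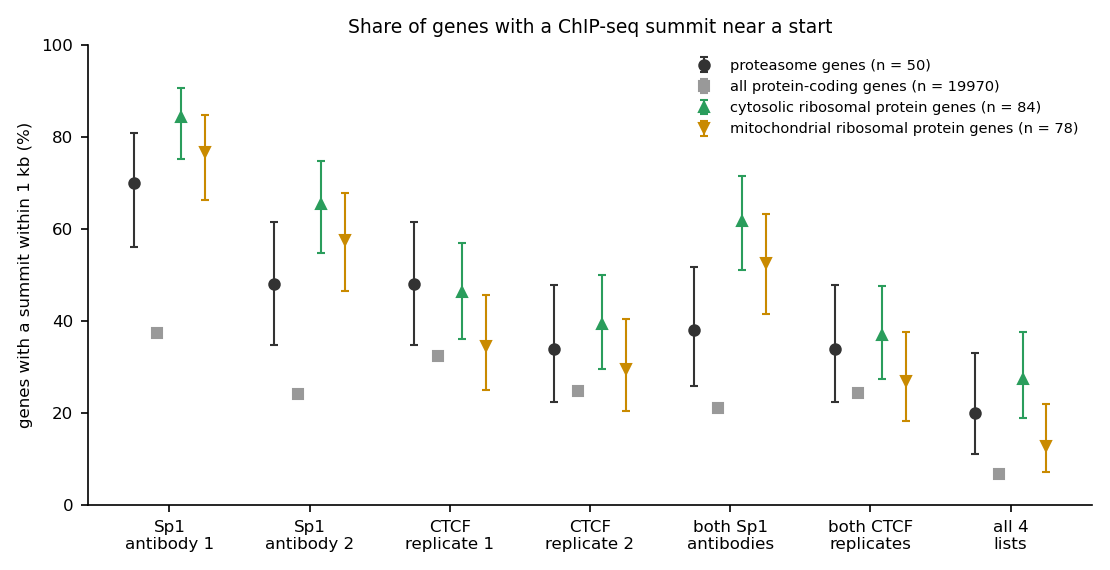
Percent of genes whose starts have a summit within 1 kb (vertical axis) in each peak list and in combinations of lists (horizontal axis), for 50 proteasome genes, all protein-coding genes and both ribosomal protein families; points are shares and bars are 95% Wilson intervals. Proteasome genes lie above all protein-coding genes throughout, at 70% against 37.5% for Sp1 antibody 1 and 20% against 6.71% for all 4 lists.

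Other families of constitutive complexes had still higher Sp1 shares. The 84 cytosolic ribosomal protein genes were occupied in 84.5% with antibody 1 and 65.5% with antibody 2, and the 78 mitochondrial ribosomal protein genes in 76.9% and 57.7%. The intervals of the proteasome genes overlapped those of both families. For CTCF replicate 1 the ribosomal families had 46.4% and 34.6% beside 48% for the proteasome genes. In replicate 2 they had 39.3% and 29.5% beside 34%, and in both replicates 36.9% and 26.9% beside 34%. Most members have CpG-rich promoters, 43 of 50 (86%) against 65.5% of all genes, where CpG-rich means a CpG observed over expected of at least 0.6 and a GC content of at least 50% in the 300 bases from 250 before to 50 after the GENCODE canonical start. Within CpG-rich promoters antibody 1 marked 72.1% of the members (57.3 to 83.3%) and 50.5% of all genes, antibody 2 marked 44.2% (30.4 to 58.9%) and 32.6%, and both antibodies together marked 34.9% (22.4 to 49.8%) and 28.8%. Within these promoters the share of all genes lay below the members' interval for antibody 1. It lay inside the interval for antibody 2 and for both antibodies. CTCF replicate 1 marked 53.5% of CpG-rich members (38.9 to 67.5%) and 39.8% of all CpG-rich genes, inside the interval. CTCF replicate 2 marked 37.2% (24.4 to 52.1%) and 30.1%, also inside it. Both antibodies and both CTCF replicates together marked 20.9% (11.4 to 35.2%) and 9.09%, below the interval. Members also have more annotated starts, with a median of 8 against 5, and each start adds to the sequence searched. With the canonical start alone, antibody 1 marked 34 members (68%) against 34.1% of all genes, and antibody 2 marked 24 (48%) against 21.8%.

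The values of every member follow by role, as the fold enrichment over control at the summit that the authors' peak caller gave, taking the highest peak within 1 kb of a start. Distances are from the summit to the nearest start of the gene, negative upstream. Over occupied members the median fold was 7.02 with antibody 1 (95% interval of the median 6.14 to 9.31) against 8.85 over all occupied genes, and 7.85 with antibody 2 (5.73 to 11.2) against 7.02. For CTCF it was 20.7 (6.38 to 44.6) against 22.6 in replicate 1 and 16.8 (6.35 to 55) against 19.8 in replicate 2. In the same order, 12 of 35, 16 of 24, 12 of 24 and 7 of 17 occupied members were at or above the median of all occupied genes, and 4, 8, 5 and 5 were in the top 25% of their list.

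**Figure D2:**
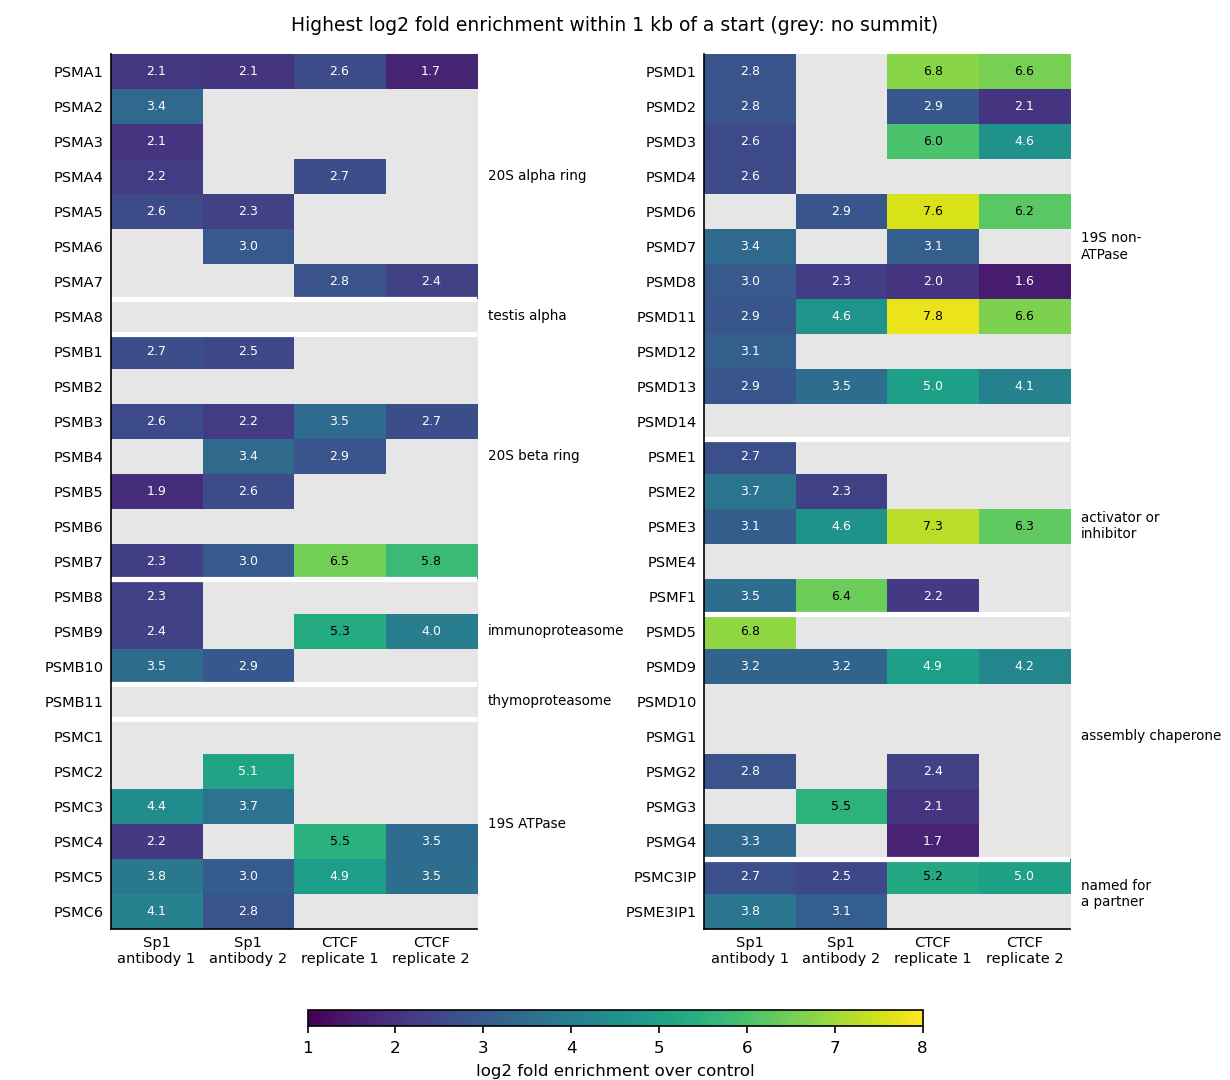
Highest log2 fold enrichment within 1 kb of a start for each of the 50 members (rows, grouped by role) in the Sp1 and CTCF lists (columns), with the value printed in each cell and grey where no summit was found. Sp1 values are mostly between 2 and 4, while the highest CTCF values, 7.79 for PSMD11 and 7.58 for PSMD6 in replicate 1, are in the non-ATPase genes.

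In the alpha ring all of PSMA1 to PSMA7 had a summit in some list, beside 56.2% of all genes. PSMA1 was the alpha gene marked in every list, at 4.38 with antibody 1, 4.20 with antibody 2, 6.08 in CTCF replicate 1 and 3.28 in replicate 2. Its antibody 1 and antibody 2 summits lay 4 bp apart at the main start. The replicate 1 CTCF summit was at another place, within the PDE3B gene, −863 bp from an alternative start of PSMA1 and −124112 bp from the canonical start. PSMA5 had 6.10 with antibody 1 and 5.08 with antibody 2, and PSMA4 had 4.63 with antibody 1 and 6.38 in CTCF replicate 1. PSMA2 at 10.5 and PSMA3 at 4.26 were marked by antibody 1 alone. PSMA6 was marked by antibody 2 alone, at 7.78. PSMA7 was the only member of the 41 with CTCF and no Sp1 summit, at 6.95 and 5.26 in the replicates, in an intron.

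Of the beta ring, 5 of 7 genes were occupied in some list, beside 56.2% of all genes. Among them PSMB7 had the highest CTCF folds. PSMB7 encodes the subunit with trypsin-like activity. It had 4.97 with antibody 1, 7.92 with antibody 2, 91.2 in CTCF replicate 1 and 55.0 in replicate 2, and both CTCF summits fell on the same base at −171 bp. PSMB5, the chymotrypsin-like subunit, had 3.77 with antibody 1, the lowest antibody 1 value of any member, and 6.09 with antibody 2. PSMB6, the caspase-like subunit, had no summit in any list. By antibody 1 fold, PSMB5 and PSMB7 ranked only 7298 and 6549 among 7481 occupied genes. By antibody 2 fold they ranked 3048 and 1951 among 4825, so the low values are those of antibody 1. A missing Sp1 summit at PSMB6 does not show that the genes differ, since neither antibody has a replicate. PSMB4 had 10.8 with antibody 2 and 7.19 in CTCF replicate 1, and no antibody 1 summit. PSMB3 was marked in all lists, at 5.92 and 4.69 for the Sp1 antibodies and 11.0 and 6.35 for the CTCF replicates, but its CTCF summits were 9085 and 9095 bp from the canonical start. PSMB1 had 6.45 and 5.73 with the Sp1 antibodies, at −854 and −989 bp, in peaks that are also within 1 kb of a start of TBP. PSMB2 had none.

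The immunoproteasome genes, whose products replace the catalytic beta subunits after interferon exposure, were all marked by antibody 1, beside 37.5% of all genes. PSMB8 had 5.08, in a peak it shares with an upstream alternative start of PSMB9. PSMB9 had 5.18 with antibody 1, 39.7 in CTCF replicate 1 and 15.6 in replicate 2. The antibody 1 and CTCF replicate 1 summits of PSMB9 fell on the same base, −4 bp from a start, and the antigen transporter gene TAP1 has a start within 1 kb. PSMB10 had 11.1 with antibody 1 and 7.61 with antibody 2, at an alternative start. Antibody 2 thus marked PSMB10 alone among these 3 genes. The tissue-restricted PSMB11, of the thymus, and PSMA8, of the testis, had no summit in any list.

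The ATPase genes of the regulatory particle gave some of the highest Sp1 folds. PSMC3 had 21.1 with antibody 1 and 12.8 with antibody 2, at 118 bp from each other, the first being the summit of the window printed above. PSMC6 had 17.1 and 7.12, with both summits on the same base at −55 bp. PSMC5 was marked in all lists, at 13.9 and 8.14 with the Sp1 antibodies and 30.4 and 11.5 in the CTCF replicates, in a promoter shared with the divergent gene FTSJ3. PSMC2 had no antibody 1 summit and 34.4 with antibody 2, right at a start, with another antibody 2 peak of 32.03 near the neighbouring gene DNAJC2. PSMC4 had 4.57 with antibody 1, 44.6 in CTCF replicate 1 and 10.9 in replicate 2, the largest drop between CTCF replicates of any member, at −2.03 log2. PSMC1 was marked in no list.

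CTCF was found most often, by count, in the 11 non-ATPase genes, which are the largest role group. It marked 8 in replicate 1 and 7 in both replicates, beside 32.5% and 24.3% of all genes. Among them PSMD2, PSMD7 and PSMD13 had replicate 1 summits at alternative starts only, as did PSMD2 and PSMD13 in replicate 2. PSMD11, whose product braces the lid against the core, had 7.32 with antibody 1, 24.7 with antibody 2, 222 in CTCF replicate 1 and 99.3 in replicate 2, the last 2 being the highest CTCF values of any member. Its antibody 1 and CTCF summits lay 10 and 9 bp apart, while the antibody 2 summit lay 132 bp from that of antibody 1. PSMD6, another lid subunit, had 7.31 with antibody 2, 192 in CTCF replicate 1 and 73.4 in replicate 2, and no antibody 1 summit. PSMD1, a base scaffold, had 6.997 with antibody 1 and 108 and 94.98 in the CTCF replicates, with summits 63 and 66 bp from that of antibody 1. PSMD3 had 5.92 with antibody 1 and 65.6 and 23.7 in the CTCF replicates, 35 and 28 bp away. In PSMD1, PSMD3 and PSMD11 a CTCF summit and the antibody 1 summit thus lay within 100 bp, with the CTCF fold the higher.

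The other non-ATPase genes had lower CTCF values or none. PSMD13 had 7.24 and 11.2 with the Sp1 antibodies in the promoter it shares with SIRT3, and 31.0 and 16.8 in the CTCF replicates, at 13945 and 13960 bp from the canonical start. PSMD8 had 7.79, 4.82, 4.15 and 2.92 in the order antibody 1, antibody 2, replicate 1 and replicate 2. PSMD2 had 7.02 with antibody 1 and 7.404 and 4.187 in the CTCF replicates, at 6517 and 6539 bp from the canonical start. PSMD7 had 10.5 with antibody 1 and 8.63 in CTCF replicate 1. PSMD4, a ubiquitin receptor, had 6.13 and PSMD12 had 8.73, with antibody 1 alone. PSMD14, the deubiquitylase of the lid, was the non-ATPase gene with no summit in any list.

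Among the activators and the inhibitor, PSMF1 had the highest Sp1 value of the members by the mean of both antibodies. PSMF1 encodes a proteasome inhibitor, and it had 11.6 with antibody 1, 85.4 with antibody 2 and 4.57 in CTCF replicate 1. The summits of the antibodies lay 6 bp apart, and the value with antibody 2 was 7.37 times that with antibody 1. It was the only ratio over 4 in either direction among members with both antibodies (5.26%), against 11% of all genes with both. PSME3, which encodes the nuclear activator, had 8.34 and 24.1 with the Sp1 antibodies near its canonical start. Its CTCF values of 154 and 79.0 were at an alternative start −9013 and −9024 bp away, within the autophagy gene BECN1. A weaker antibody 2 peak of PSME3, at 4.865, lay −150 bp from that alternative start, 149 and 138 bp from the CTCF summits. PSME2 had 12.8 and 4.99, at 573 bp from each other, and PSME1 had 6.51 with antibody 1. PSME4 had no summit.

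Of the assembly chaperones, PSMD5 carried the highest antibody 1 value of any member, 115, at −48 bp, and no summit in the other lists. By fold it ranked 31 among the 7481 genes occupied with antibody 1. PSMG3 was the reverse case, with 46.2 with antibody 2, 4.17 in CTCF replicate 1 and no antibody 1 summit. PSMD9 was marked in all lists, at 9.31 and 9.54 with the Sp1 antibodies and 30.7 and 18.7 in the CTCF replicates, with CTCF at 279 and 287 bp and Sp1 at −88 and −6 bp. PSMG2 had 6.89 with antibody 1 and 5.26 in CTCF replicate 1, and PSMG4 had 10.1 and 3.18 in these lists. The 5.26 peak of PSMG2 was −16742 bp from the canonical start. A weaker CTCF replicate 1 peak of 3.26 lay 267 bp from the antibody 1 summit of PSMG2. PSMD10, also known as gankyrin, and PSMG1 had no summit. Of the genes named for a partner, PSMC3IP, a cofactor of meiotic recombination, had 6.54, 5.70, 37.4 and 31.6 in the same order of lists. PSME3IP1, whose product binds PSME3, had 13.4 and 8.45 with the Sp1 antibodies.

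Unoccupied in all lists were thus PSMA8, PSMB2, PSMB6, PSMB11, PSMC1, PSMD10, PSMD14, PSME4 and PSMG1, 9 members from 7 of the 10 role groups. A summit in any list was found at 82% of members, against 56.2% of all genes, so unoccupied genes were less frequent among members. Subunits of the same ring were not all marked, but the lists do not show whether an unoccupied gene lacked the factor or the depth.

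Sp1 summits sat close to the start, and CTCF summits were more spread. The median distance was −55 bp with antibody 1 and −27 bp with antibody 2, against −61 and −58 bp over all occupied genes. The strongest summit was within 100 bp of a start in 23 of 35 (65.7%) and 18 of 24 members (75%), against 57.3% and 55.4% of all occupied genes. For CTCF the medians were −95 and −67 bp against −60 and −67 bp, and the counts within 100 bp were 8 of 24 (33.3%) and 8 of 17 (47.1%) against 30.7% and 29.7%. Upstream summits made up 29 of 35 (82.9%) and 18 of 24 (75%) for Sp1, against 80.1% and 75.1%, and 19 of 24 (79.2%) and 13 of 17 (76.5%) for CTCF, against 61.6% and 63.5%. The closer position of Sp1 summits was thus also seen over all genes. Measured from the canonical start alone, 34 of 35 (97.1%) and all 24 of the strongest Sp1 summits still lay within 1 kb, against 88.7% and 88.5% of all occupied genes. For CTCF it was 16 of 24 (66.7%) and 12 of 17 (70.6%), against 63.7% and 60.4%. The members with CTCF summits at alternative starts only were PSMA1, PSMA7, PSMB3, PSMD2, PSMD7, PSMD13 and PSME3 in replicate 1, and PSMA7, PSMB3, PSMD2, PSMD13 and PSME3 in replicate 2. With the canonical start alone both CTCF replicates marked 11 members (22%) against 15.6% of all genes, and all lists marked 6 (12%) against 4.14%.

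**Figure D3:**
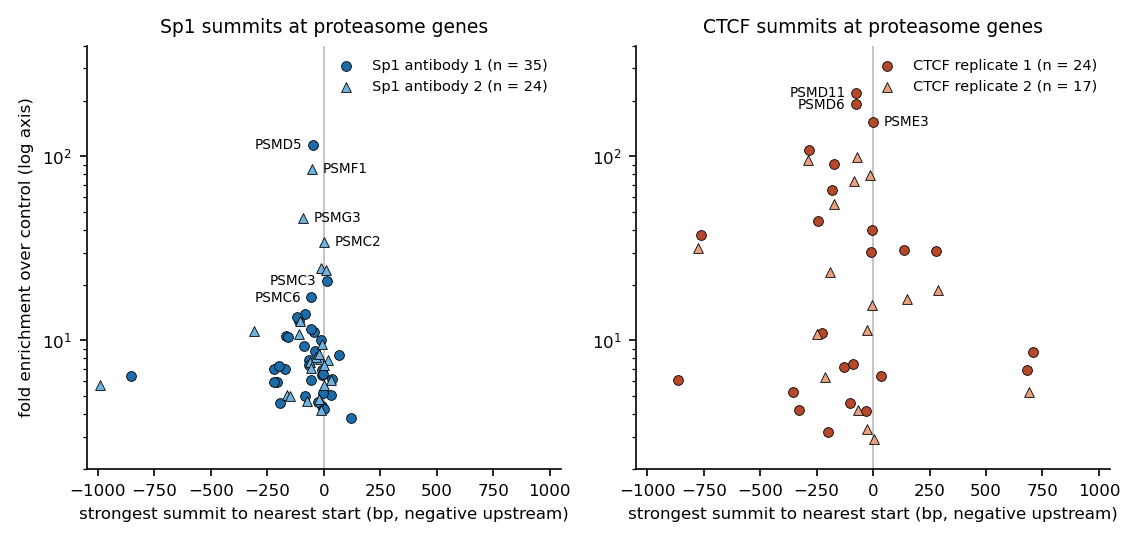
Fold enrichment over control (vertical log axis) against the distance from the strongest summit to the nearest transcript start in bp (horizontal axis, negative upstream) for occupied members, Sp1 on the left and CTCF on the right, 1 point a member and list. Sp1 points cluster near the start, with medians of −55 and −27 bp, while CTCF points with high folds lie at several distances.

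Neighbouring genes share some of these peaks. Of 35 distinct antibody 1 peaks at members, 13 are also within 1 kb of a start of another protein-coding gene, and the counts are 12 of 27 for antibody 2, 6 of 25 for CTCF replicate 1 and 5 of 17 for replicate 2. No such share was counted over all genes, so these counts do not show whether sharing is more frequent at members. The lists cannot say to which gene such a peak belongs. Among these are the peaks near FTSJ3, SIRT3, TAP1 and BECN1 named above, and that of PSMA2 beside MRPL32, a mitochondrial ribosomal protein gene. The antibody 1 peak of PSMG2 and its CTCF replicate 1 peak of 3.26 are also among them, beside CEP76.

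The Sp1 antibodies marked partly different members. Antibody 1 alone marked 16 members (32%), against 16.3% of all genes. Antibody 2 alone marked PSMA6, PSMB4, PSMC2, PSMD6 and PSMG3 (10%, 4.35 to 21.4%), against 2.96% of all genes. At the 19 members with both, the median distance between summits was 90 bp, and 11 (57.9%) had them within 100 bp, against 67% of such genes overall. The median log2 ratio of antibody 2 to antibody 1 was −0.20, with a range of −1.36 at PSME2 to 2.88 at PSMF1, against −0.66 over all genes, and antibody 2 had the higher fold at 7 of 19. Whether the antibodies differ in what they recover, or the libraries in depth, cannot be told apart with 1 library each. The CTCF replicates were closer: at 17 members the median distance between their summits was 10 bp, with 15 (88.2%) within 100 bp, and replicate 1 was the higher at 17 of 17. Over all such genes the median distance was 8 bp, 98.6% lay within 100 bp and replicate 1 was the higher at 4732 of 4843.

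**Figure D4:**
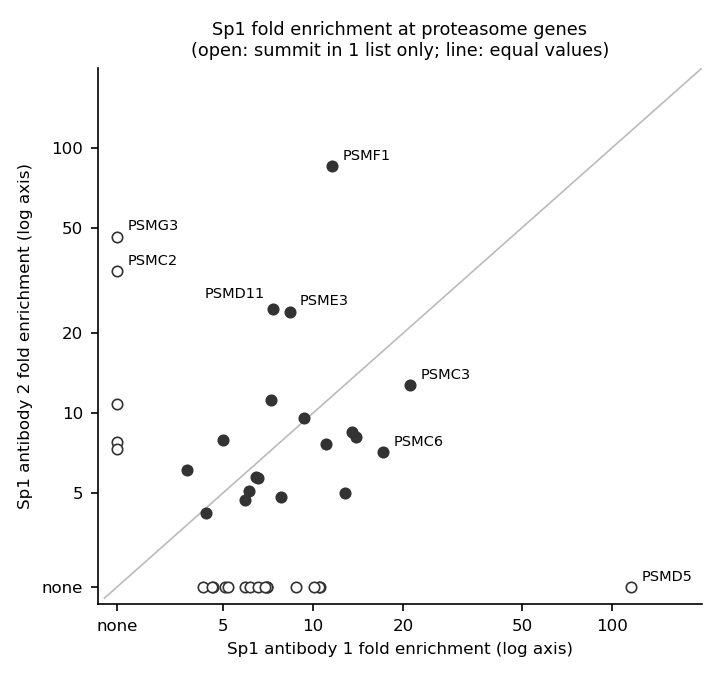
Fold enrichment with Sp1 antibody 2 (vertical log axis) against antibody 1 (horizontal log axis) for the 40 members with an Sp1 summit; filled points have both, open points are placed at "none" for the list that lacks a summit, and the line marks equal values. PSMF1 at 85.4 and PSMG3 at 46.2 lie high for antibody 2, and PSMD5 at 115 lies on the antibody 1 axis.

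All 4 lists marked 10 members: PSMA1, PSMB3, PSMB7, PSMC3IP, PSMC5, PSMD8, PSMD9, PSMD11, PSMD13 and PSME3. Of the 19 members with both Sp1 antibodies, 10 had both CTCF replicates (52.6%, 31.7 to 72.7%), against 31.6% of all genes with both antibodies, just below that interval. With either antibody it was 16 of 40 (40%, 26.3 to 55.4%), against 30.8%, which lies inside it. Of the 10 members with neither antibody, 1 had both CTCF replicates (10%), against 19.8%. A gene can hold both factors at different starts, so the summits were compared directly. At the 20 members with antibody 1 and CTCF replicate 1, the closest summits were 298.5 bp from each other at the median, and 7 (35%) had them within 100 bp, against 18.6% of all such genes. These 7 were PSMB7, PSMB9, PSMC4, PSMD1, PSMD3, PSMD11 and PSMF1. With CTCF replicate 2 it was 7 of 15 (46.7%) against 17.5%. With antibody 2 the share within 100 bp of CTCF replicate 1 was 3 of 14 (21.4%) against 17.6%.

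The promoter windows were then searched for motifs on both strands. RefSeq windows (GRCh38.p14, 250 bases before to 50 after the start) were found for 44 members and for 76.7% of all genes, so the same 300 bases were also read at the GENCODE canonical start for every gene. The members PSMA7, PSMB1, PSMB6, PSMB7, PSMD4 and PSMG3 have no RefSeq window here. In the RefSeq windows the GC box GGGCGG was in 31 of 44 members (70.5%, 55.8 to 81.8%) against 61.8% of all genes. The CCAAT box, searched as CCAAT, was in 20 (45.5%) against 36.6%. Neither share of all genes was outside the members' interval. A TATA box, searched as TATAAA, was in 5 (11.4%) against 9.43%, and the NRF1 site GCGCATGC in 2 (4.55%) against 4.37%.

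The ETS core CCGGAAGT stood out. It was in 11 of 44 members (25%, 14.6 to 39.4%) against 6.44% of all genes in the RefSeq windows, and in 14 of 50 (28%, 17.5 to 41.7%) against 6.15% at the canonical start. Those 14 are PSMA6, PSMA8, PSMB1, PSMB7, PSMC1, PSMC2, PSMD8, PSMD12, PSMD13, PSMD14, PSME3IP1, PSME4, PSMF1 and PSMG3, with the first base of every match between −80 and 16 bp of the start. Antibody 2 marked 9 of these 14 (64.3%), against 54.8% of all genes with the core, and antibody 1 marked 7 (50%), against 62.6%. The core was in 3 of the 5 members marked by antibody 2 alone and in 22% of all genes marked by antibody 2 alone, compared with 1 of 16 members and 6.93% of all genes marked by antibody 1 alone. In the top 25% of antibody 2 genes by fold it was in 4 of 8 members and in 19.6% of all genes, compared with 5 of 16 (31.2%) and 12.1% in the other antibody 2 genes. The core was also in 4 of the 10 members with neither antibody (40%), against 2.77% of all such genes. This split by list was made after the values were seen.

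Near the summits themselves the GC box was no more frequent at members than elsewhere. Within 50 bp of the summit it was in 17 of 35 antibody 1 peaks at members (48.6%, 33 to 64.4%) against 56.8% of antibody 1 peaks at all genes. For antibody 2 it was in 6 of 27 (22.2%, 10.6 to 40.8%) against 44.8%, which lies above the members' interval. The median antibody 1 fold was 6.54 at member peaks with the GC box and 7.13 at those without, and for antibody 2 it was 8.84 and 7.31. The ETS core was within 50 bp in 3 of 27 antibody 2 peaks at members (11.1%, 3.85 to 28.1%) against 6.77%, which lies inside the interval. The CTCF core was within 50 bp in 5 of 25 replicate 1 peaks (20%, 8.86 to 39.1%) against 33.8%, which lies inside the interval. The 5 peaks were at PSMD1, PSMD2, PSMD6, PSMD7 and PSMG2. In replicate 2 it was in 3 of 17 (17.6%, 6.19 to 41%) against 39.6%, also inside the interval. The word TCGCGAGA was near the summit of PSMD5 alone among 35 antibody 1 peaks, and of 3.32% of antibody 1 peaks at all genes.

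The antioxidant response element was searched as the core TGANNNNGC and as the strict form TGACTCAGC, which also holds the AP-1 letters. The core was in 27 of 44 RefSeq windows of members (61.4%, 46.6 to 74.3%) against 42.6% of all genes. The strict form was in no member there and in 0.457% of all genes. In the 1 kb centred on the canonical start, however, the strict form was in 6 of 50 members (12%, 5.62 to 23.8%) against 1.04% of all genes. In each of the 6 it lay downstream of the start, between 201 and 364 bp, and on the strand opposite to the gene. The 29 bases around each match are shown because the wider window alone brings them in; they are on the gene's own strand in hg38, with the match, read as the reverse complement of the strict form, in capitals. The positions are chr14:58245197-58245225 (plus strand) for PSMA3, chr1:109426089-109426117 (minus) for PSMA5, chr2:231057090-231057118 (plus) for PSMD1, chr3:184299432-184299460 (plus) for PSMD2, chr16:74297020-74297048 (plus) for PSMD7 and chr17:67366355-67366383 (minus) for PSMD12.
PSMA3: gctttggattGCTGAGTCActttcttcag
PSMA5: ttgtcctaccGCTGAGTCAcccctgggtc
PSMD1: ccggcttttaGCTGAGTCAgggccggtga
PSMD2: aggctgcgggGCTGAGTCAcggcggctcc
PSMD7: cgcagccgctGCTGAGTCAcgggcacgct
PSMD12: ggcgccagggGCTGAGTCAcggcgcggag

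All 6 genes had an antibody 1 summit, beside 70% of all members and 37.5% of all genes. It lay 276 to 481 bp from the middle of the match. These members, 2 alpha ring and 4 non-ATPase genes, therefore did not have the element under the Sp1 summit. The YY1 core AAGATGGC was in 11 of 50 members (22%, 12.8 to 35.2%) against 7.29% in the 1 kb windows, and in 6 (12%, 5.62 to 23.8%) against 4.06% in the 300 bases at the canonical start. In the RefSeq windows it was in 4 of 44 (9.09%, 3.59 to 21.2%) against 4.16%, which lies inside the interval. In 5 of the 6 at the canonical start, namely PSMA2, PSMB6, PSMB7, PSMD5 and PSMD11, it began between 10 and 28 bp after the start, on the gene's strand.

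**Figure D5:**
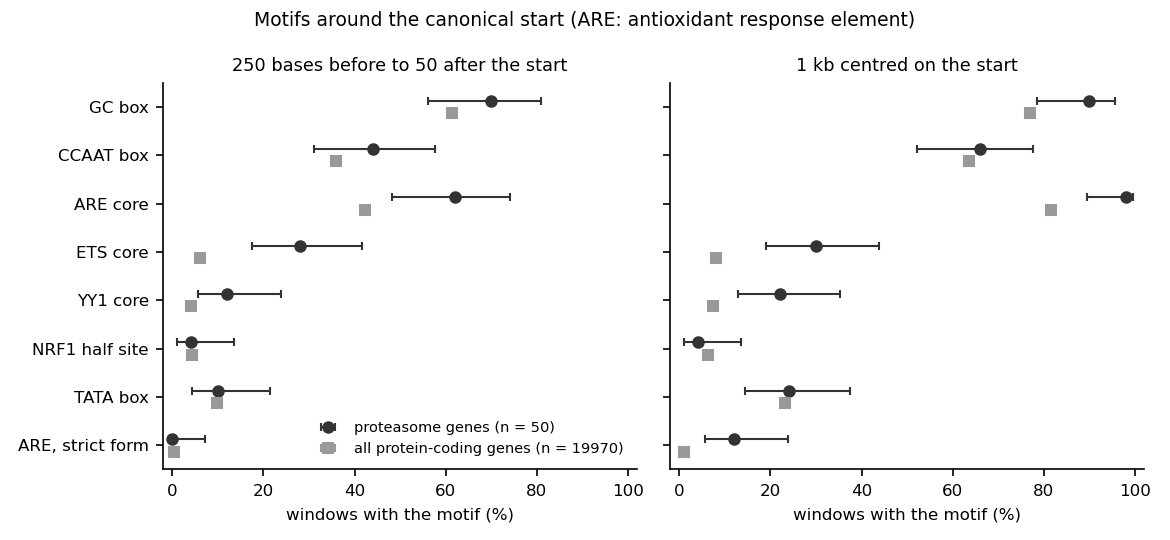
Percent of windows with each motif on either strand (horizontal axis) for 50 proteasome genes and all protein-coding genes, in the 300 bases (left) and the 1 kb (right) at the GENCODE canonical start; points are shares and bars are 95% Wilson intervals. The ETS core is at 28% against 6.15% on the left, and the strict antioxidant response element (ARE) is at 12% against 1.04% on the right only.

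Genes that work with the proteasome but carry other symbols were counted in the same way. Of 29 such genes, 18 (62.1%) were marked by antibody 1, 14 (48.3%) by antibody 2 and 13 (44.8%) by both, against 37.5%, 24.2% and 21.2% of all genes. CTCF replicate 1 marked 10 (34.5%) and both CTCF replicates 5 (17.2%), against 32.5% and 24.3%. Of the subunits outside the symbol rule, ADRM1, a ubiquitin receptor, was marked in all lists, at 5.74 and 5.28 with the Sp1 antibodies and 86.9 and 69.2 in the CTCF replicates, and SEM1 in none. POMP, the maturation factor of the core particle, had no summit either. NFE2L1 had 10.8 with antibody 1 and 8.83 with antibody 2 and no CTCF summit. Its paralog NFE2L2 had 7.24, 34.4, 112 and 46.1 in the order antibody 1, antibody 2, replicate 1 and replicate 2.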

How the data were processed

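The authors trimmed reads, aligned them to hg38 and called peaks. Per the labels the tools were cutadapt 2.6, Bowtie2 2.4.5, SAMtools 1.15.1, deepTools 3.5.4, MACS2 2.2.7.1 and bedtools 2.27.1. The study's methods give other versions of Bowtie2 and SAMtools. They describe peak calling for a reproducibility step, with a permissive p-value limit, merged controls and no local background, and an exclusion list for coverage tracks, without saying which settings made the deposited lists. Lists were called per library, not on pooled replicates, and the lowest deposited −log10 q was between 1.3 and 1.43. Each deposited line gives an interval, a fold enrichment over control (a linear ratio made by the authors), −log10 p and −log10 q values, a score and the summit offset. The score was not used, and a summit is the deposited start plus the offset.

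Starts of all transcripts of protein-coding genes came from GENCODE release 44, and sequences from hg38. Distances use 1-based coordinates, and a gene's value in a list is its highest fold among peaks with a summit within 1 kb. Shares carry 95% Wilson intervals, and medians an order-statistic interval. These cover counting error only, since genes are not independent replicates. The steps ran in Python 3.11.15 with numpy 2.4.6, scipy 1.17.1 and pysam 0.24.0, and the search for summits, distances and motifs was tested on simulated data. Where a gene has several RefSeq windows, the window nearest the canonical start was taken. RefSeq covered fewer genes than planned, so base composition was read from the genome at the canonical start.

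Members with values in every list were chosen by mean log2 fold (5 for Sp1, 5 for CTCF), by occupancy of antibody 2 alone or of all lists, and by class. The other members are given by class as well. The members, lists of other genes and motifs were chosen with earlier results of these data known. Alternatives changed the distance, threshold, placing of peaks, starts, member list, IgG overlap, replicate, promoter window and peak choice. The printed windows, the motifs near summits, the split by ETS core and the canonical 300-base window were chosen after the data had been seen. Input libraries have no peak list here and were not analysed.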

Additional observations from a re-analysis of the deposited data

How the results depend on the processing

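Of 80 alternative values, 75 stayed within 1.5 times the reported count or within the interval of the reported median. That limit concerns the members' values and not the contrast with all genes. With summits within 5 kb, CTCF replicate 1 marked 56% of members against 51.7% of all genes, and replicate 2 marked 46% against 44%. Both CTCF replicates marked 46% against 43.4%, so the CTCF contrast was smaller there. For Sp1 it was 70% against 40.7% with antibody 1 and 50% against 27.1% with antibody 2. With the canonical start alone, both CTCF replicates marked 11 members and all lists marked 6, since fewer starts are searched. With Sp1 summits of the pair required within 100 bp of each other, both antibodies marked 11 members (22%) against 14.2% of all genes. In the 1 kb window the CCAAT box was in 33 of 50 members (66%) against 63.7% of all genes, and the antioxidant response element core in 49 (98%) against 81.5%, since more bases are searched. Leaving out each CTCF replicate in turn gave 17 to 24 members for CTCF and 10 to 11 for all lists. No paired analysis was possible because replicate numbers are shared by CTCF and input libraries alone, and the inputs were not analysed as lists. Lists without read counts do not show whether an unoccupied member lacked the factor or the depth to detect it.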
